A study of Mus musculus with 9 samples.

Results

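Remodelling of the extracellular matrix was followed in 10 genes of the mouse submandibular salivary gland, taken by name from the deposited read counts as the metalloproteinases Mmp2, Mmp3 and Mmp14, the aggrecanase-type proteinase Adamts1, the inhibitors Timp1, Timp2 and Timp3, and the collagen crosslinking enzymes Lox, Loxl1 and Loxl2. They are 10 of 54532 genes counted, and all 10 were among the 15224 genes left by the filter on low counts. The glands came from wild-type mice given 10 Gy of radiation and were collected 30, 60 or 90 days later, with 3 libraries at each time. No group without radiation was analysed here, so each comparison is between irradiated glands of different times, and the time after irradiation and ageing cannot be told apart. Neither age, sex nor strain is given, and the labels do not say that the 3 samples of a group are separate animals, so p-values measure only the spread between these samples. RNA was taken from sections of whole gland, a mixture of secretory, duct, stromal and immune cells.

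The matrix is a meshwork of collagens, elastic fibres and proteoglycans that is laid down mostly by fibroblasts and smooth muscle cells. Matrix metalloproteinases are zinc enzymes that cut its proteins, and most are made as inactive precursors. Tissue inhibitors of metalloproteinases, the Timp proteins, bind the active site of these enzymes. Lysyl oxidases convert lysines of collagen and elastin into aldehydes that then form crosslinks, which stiffen the fibres and slow their digestion. Scarring of the stroma is a known late effect of radiation on salivary glands, and both sides of this balance are studied in it.

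Promoter windows show what the members carry in front of the start site. The RefSeq table (GRCm38.p6) held a window of 300 bases, most of it before the start site, for 6 of the 10 genes, namely Mmp3, Mmp14, Timp1, Timp2, Timp3 and Adamts1. Mmp2, Lox, Loxl1 and Loxl2 are without one here. Each window was searched on both strands for 5 motifs, and capitals mark every match. They were the AP-1 site TGAGTCA, the cAMP response element TGACGTCA, the TATA box TATAAA, the GC box GGGCGG and the Ets core AGGAAG. In the windows of the 6 genes no matches overlapped one another. The windows of Mmp14 and Timp1 are printed because theirs was among the 3 highest correlations between members over the libraries, that of Mmp3 because it holds the AP-1 match, and that of Adamts1 because its levels followed the other members least.
Mmp14, chr14:54431348-54431647, plus strand: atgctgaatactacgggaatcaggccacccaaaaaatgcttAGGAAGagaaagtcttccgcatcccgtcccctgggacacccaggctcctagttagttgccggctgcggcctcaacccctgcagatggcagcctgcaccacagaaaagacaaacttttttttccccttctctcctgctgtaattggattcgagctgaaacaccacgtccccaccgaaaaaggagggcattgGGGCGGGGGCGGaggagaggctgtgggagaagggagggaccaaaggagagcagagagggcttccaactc
Timp1, chrX:20869916-20870215, plus strand: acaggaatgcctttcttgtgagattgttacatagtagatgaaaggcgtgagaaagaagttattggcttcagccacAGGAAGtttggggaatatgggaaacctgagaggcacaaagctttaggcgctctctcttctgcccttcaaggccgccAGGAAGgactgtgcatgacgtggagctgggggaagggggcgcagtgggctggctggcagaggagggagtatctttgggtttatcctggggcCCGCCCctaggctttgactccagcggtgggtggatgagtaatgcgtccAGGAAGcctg
Mmp3, chr9:7445572-7445871, plus strand: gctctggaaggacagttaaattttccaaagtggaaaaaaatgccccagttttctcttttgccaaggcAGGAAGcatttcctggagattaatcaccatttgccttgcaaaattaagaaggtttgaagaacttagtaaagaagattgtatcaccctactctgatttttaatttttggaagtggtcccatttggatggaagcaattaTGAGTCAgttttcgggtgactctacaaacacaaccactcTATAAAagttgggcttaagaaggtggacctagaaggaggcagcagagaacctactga
Adamts1, chr16:85803064-85803363, minus strand: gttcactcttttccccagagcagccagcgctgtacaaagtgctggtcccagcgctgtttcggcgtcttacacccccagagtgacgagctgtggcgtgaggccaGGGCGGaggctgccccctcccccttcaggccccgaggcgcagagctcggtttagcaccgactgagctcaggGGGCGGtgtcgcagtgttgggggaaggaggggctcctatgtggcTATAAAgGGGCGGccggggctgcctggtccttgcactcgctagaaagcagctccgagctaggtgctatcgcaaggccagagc
Counting from 1 at the RefSeq start and from -1 at the base before it, Mmp3 was the single member window with the AP-1 site, at -46, where 5.20% of all 32851 windows of this length hold it. It also held TATAAA at -7, present in 13.6% of all windows, and AGGAAG at -183. Mmp14 held GGGCGG at -19 and again at -13 and AGGAAG at -209. Timp1 held the GC box on the opposite strand at -8 and AGGAAG at -175, -99 and 41. The Ets core was therefore common to the windows of Mmp14, Timp1, Mmp3 and Timp3, but 35.4% of all windows have it. Adamts1 held TATAAA at -32 and GC boxes at -147, -76 and -25. A GC box was present in 5 of the 6 windows, all but that of Mmp3, against 35.7% of all windows, and the cAMP response element, found in 1.79% of all windows, was in none of the 6. Base composition went the same way, with 40.0% G and C in the window of Mmp3, 56.0% in Mmp14, 55.0% in Timp1, 64.7% in Adamts1, 67.0% in Timp3 and 68.7% in Timp2, where the median of all windows was 52.7%. A match says only that these letters occur there.

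The inhibitors Timp2 and Timp3 were the most abundant of the 10 genes and Lox the least. Levels between genes are compared as CPM (gene counts over the TMM-scaled library total) per kilobase of exon, averaged over the 9 libraries. Timp2 was highest at 28.5 CPM per kilobase, with libraries between 24.3 and 31.7. Timp3 followed at 8.06, Mmp2 at 6.22, Mmp3 at 3.66, Mmp14 at 2.72 and Loxl1 at 2.44 CPM per kilobase. Timp1 stood at 1.06, Loxl2 at 1.04, Adamts1 at 0.584 and Lox at 0.350 CPM per kilobase. Between neighbours in this order the library ranges overlapped, with the exception of Timp2 over Timp3 (6.25 to 11.0 for Timp3) and of Loxl1 (1.71 to 3.25) over Timp1 (0.319 to 1.69). Timp2 alone made up 47.1% to 58.6% of the summed level of the 10 genes in each library. Exon length was taken over all annotated isoforms, which lowers the value of a gene with long alternative ends.

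**Figure D1:**
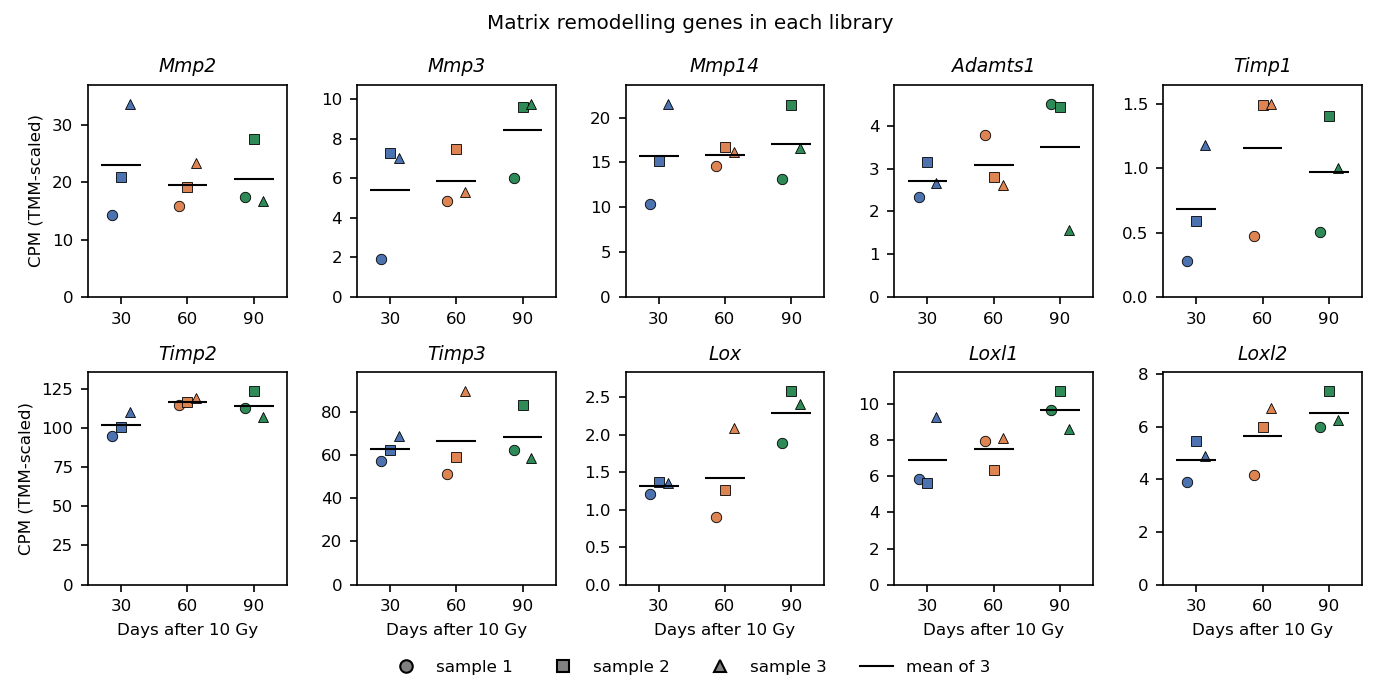
Level of each of the 10 genes in CPM (a separate linear axis for each gene) at 30, 60 and 90 days. Points are single libraries and bars are group means. The Timp2 points lie close together, from 94.8 to 124 CPM, while those of Timp1 are spread from 0.283 to 1.50 CPM.

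Among the proteinases, Mmp2, or gelatinase A, which digests denatured collagen and basement membrane collagen (ENSMUSG00000031740, GRCm38 chromosome 8, 92827291 to 92853420, plus strand), had libraries at 14.2, 21.0 and 33.7 CPM at 30 days, for samples 1, 2 and 3 in that order. At 60 days it stood at 15.9, 19.2 and 23.3 CPM, and at 90 days at 17.3, 27.6 and 16.7 CPM. The 30-day group held both the lowest and the highest library, and the later groups lay inside its range. Its group means were 23.0 ± 9.86, 19.4 ± 3.68 and 20.5 ± 6.10 CPM (SD, n = 3 each).

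Mmp14, a membrane-anchored collagenase that also activates the Mmp2 precursor on the cell surface with Timp2 as an adaptor (ENSMUSG00000000957, chromosome 14, 54431612 to 54445364, plus strand), measured 10.4, 15.2 and 21.5 CPM at 30 days. It measured 14.6, 16.8 and 16.2 CPM at 60 days and 13.1, 21.4 and 16.6 CPM at 90 days. Here too the 30-day samples 1 and 3 were the extremes of all 9 libraries. The means of 15.7 ± 5.58, 15.9 ± 1.11 and 17.0 ± 4.15 CPM (SD, n = 3 each) differed by less than the spread within the 30-day group. Between 90 and 30 days the log2 fold change was 0.11 ± 0.23 (SE), with a 95% interval of -0.39 to 0.61.

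Mmp3, or stromelysin 1, a secreted enzyme with many matrix substrates (ENSMUSG00000043613, chromosome 9, 7445822 to 7455975, plus strand), gave 1.91, 7.30 and 7.04 CPM at 30 days. The 60-day libraries gave 4.87, 7.50 and 5.29 CPM, and the 90-day libraries 6.03, 9.62 and 9.78 CPM. Sample 1 of 30 days lay far below the rest, and the remaining 8 libraries lay within 4.87 and 9.78 CPM. The log2 fold change of 90 against 30 days was 0.62 ± 0.40 (SE; edgeR adjusted p = 0.488), and without that sample it was 0.23 (adjusted p = 0.796).

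Adamts1, a secreted proteinase of the proteoglycans versican and aggrecan (ENSMUSG00000022893, chromosome 16, 85793827 to 85803113, minus strand), gave 2.34, 3.15 and 2.66 CPM at 30 days. It gave 3.80, 2.80 and 2.63 CPM at 60 days and 4.51, 4.43 and 1.55 CPM at 90 days. The 90-day group held the 2 highest libraries and the lowest of all 9. Without 90-day sample 3 the log2 fold change against 30 days was 0.71 (edgeR adjusted p = 0.246), and with it 0.38 ± 0.33 (SE; adjusted p = 0.633).

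Of the inhibitors, Timp2 (ENSMUSG00000017466, chromosome 11, 118301069 to 118355740, minus strand) varied least, by a factor of 1.30 from the lowest to the highest library. Its libraries stood at 94.8, 101 and 110.4 CPM at 30 days, 115, 117 and 119 CPM at 60 days, and 113, 124 and 107 CPM at 90 days. All 60-day libraries were above all 30-day libraries, while the 90-day group overlapped both. The means were 102 ± 7.85, 117 ± 2.32 and 114 ± 8.36 CPM (SD, n = 3 each). The log2 fold change of 60 against 30 days was 0.20 ± 0.10 (SE), with a 95% interval of -0.01 to 0.41 (edgeR adjusted p = 0.447). For 90 against 30 days the interval in folds was 0.970 to 1.30 around 1.12.

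Timp3, which binds to the matrix itself and also inhibits Adam and Adamts proteinases (ENSMUSG00000020044, chromosome 10, 86300372 to 86349506, plus strand), stood at 57.0, 62.0 and 68.5 CPM at 30 days. It stood at 50.9, 59.1 and 89.3 CPM at 60 days and at 62.3, 83.2 and 58.7 CPM at 90 days, with 60-day sample 3 and 90-day sample 2 above the other libraries. The 95% interval of its log2 fold change from 30 to 90 days was -0.31 to 0.56. Syn3 lies across Timp3 on the opposite strand and shares an exon stretch of 1733 bases with it. Whether counting used strand is not given in the sources used here, but Syn3 had 1 to 32 counts per library where Timp3 had 805 to 2422.

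Timp1, the inhibitor that is inducible by growth factors and cytokines (ENSMUSG00000001131, chromosome X, 20870166 to 20874735, plus strand), was the least precisely measured member, with 4 to 41 counts per library. It gave 0.283, 0.594 and 1.18 CPM at 30 days, 0.474, 1.49 and 1.50 CPM at 60 days, and 0.505, 1.41 and 1.00 CPM at 90 days. Sample 1 was the lowest of its group at each time, and the groups overlapped throughout. The log2 fold change was 0.72 ± 0.57 (SE) for 60 against 30 days and 0.47 ± 0.58 for 90 against 30 days. Leaving out single libraries moved them to between 0.38 and 1.36 and between 0.080 and 1.11. The interval of the 90-day value in folds, 0.602 to 3.20, shows how little these counts limit. Timp1 sits inside an intron of Syn1 on the opposite strand, shares no exon with it, and Syn1 had 1 to 30 counts per library.

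The crosslinking enzymes had their highest group means at 90 days, as did Mmp3, Mmp14, Timp3 and Adamts1. The differences did not pass the adjusted threshold. Lox (ENSMUSG00000024529, chromosome 18, 52516067 to 52529867, minus strand), the founding member that acts on fibrillar collagen and elastin, gave 1.20, 1.37 and 1.36 CPM at 30 days and 0.906, 1.27 and 2.08 CPM at 60 days. At 90 days it gave 1.89, 2.58 and 2.41 CPM, so that all 90-day libraries were above all 30-day libraries. The means were 1.31 ± 0.0919, 1.42 ± 0.604 and 2.29 ± 0.359 CPM (SD, n = 3 each), from 17 to 75 counts per library. The fold of 90 over 30 days was 1.74, with a 95% interval of 1.04 to 2.90 (log2 fold change 0.80 ± 0.35, SE; edgeR unadjusted p = 0.0356, adjusted p = 0.258).

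Loxl1, which is tied to elastic fibre upkeep (ENSMUSG00000032334, chromosome 9, 58287738 to 58313186, minus strand), gave 5.88, 5.64 and 9.29 CPM at 30 days and 7.98, 6.37 and 8.13 CPM at 60 days. At 90 days it gave 9.67, 10.7 and 8.63 CPM, all above the 60-day libraries, while 30-day sample 3 lay within the 90-day range. The fold of 90 over 30 days was 1.39, with an interval of 1.05 to 1.85 (log2 fold change 0.48 ± 0.20, SE; edgeR unadjusted p = 0.0254, adjusted p = 0.219). Without 30-day sample 3 the log2 fold change was 0.74 and the adjusted p = 0.0477. Over the other alternatives of the fit the adjusted p of Loxl1 was above 0.05.

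Loxl2, whose substrates include basement membrane collagen (ENSMUSG00000034205, chromosome 14, 69609068 to 69695834, plus strand), gave 3.90, 5.46 and 4.91 CPM at 30 days and 4.18, 6.01 and 6.71 CPM at 60 days. It gave 6.0, 7.35 and 6.27 CPM at 90 days, above each 30-day library. The means were 4.76 ± 0.795, 5.63 ± 1.31 and 6.54 ± 0.716 CPM (SD, n = 3 each). The fold of 90 over 30 days was 1.37, with an interval of 1.00 to 1.88 (edgeR unadjusted p = 0.0488, adjusted p = 0.293). Antisense genes share 244 exon bases with Loxl2 (Gm27177, 0 to 2 counts per library) and 30 with Lox. The antisense partner of Lox is not among the genes counted. All 3 lysyl oxidase genes had positive log2 fold changes in each pairwise comparison, under each scaling run, and 0 of the 3 passed the adjusted test in any.

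Between 30 and 60 days 0 of the 10 genes had an adjusted p under 0.05 in edgeR's quasi-likelihood test, where 1.56% of all genes tested did, and 0 had an unadjusted p under 0.05, where 12.4% did. Log2 fold changes were above 0 for 9 of 10, against 49.6% of all genes, with a median of 0.11 against 0.00 for all genes. Timp2 was the single member whose 60-day libraries all lay above the 30-day ones, a pattern shown by 8.65% of all genes. Mmp2 was the member with a negative value, at -0.24 ± 0.33 (SE; adjusted p = 0.831).

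Between 60 and 90 days the count was again 0 of 10, against 0.256% of all genes, and 0 at an unadjusted p under 0.05, against 10.8%. The largest values were those of Lox, at 0.68 ± 0.34 on the log2 scale (SE; 95% interval -0.03 to 1.39; adjusted p = 0.485), Mmp3, at 0.52 ± 0.39 (adjusted p = 0.686), and Loxl1, at 0.37 ± 0.19 (interval -0.03 to 0.77; adjusted p = 0.509). Loxl1 was the member whose 90-day libraries all exceeded the 60-day ones, as did 8.3% of all genes. In 8 of 10 members the log2 fold change was above 0, against 50.1% of all genes, and the member median was 0.16. The negative values were -0.25 ± 0.53 for Timp1 and -0.03 ± 0.10 for Timp2 (SE).

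Over the whole interval from 30 to 90 days 0 of 10 members passed, against 3.57% of all genes. At an unadjusted p under 0.05 there were 3, the lysyl oxidase genes, all higher at 90 days, where 8.38% of all genes were higher at that level. DESeq2 and limma-voom also called 0 members. The median log2 fold change of the members was 0.42, against 0.01 over all genes, and 9 of 10 were above 0, against 52.1%. The groups were apart for Lox and Loxl2, and 11.4% of all genes had a 90-day group wholly above the 30-day group. Mmp2 was again the negative one, at -0.16 ± 0.33 (SE; interval -0.91 to 0.59). This comparison shares its 30-day libraries with the first and its 90-day libraries with the second.

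The 60-day value set against the mean of 30 and 90 days gave 0 of 10, where 0.256% of all genes passed, and 0 at an unadjusted p under 0.05, where 9.45% did. The largest deviation was that of Timp1, at 0.49 ± 0.47 on the log2 scale (SE; adjusted p = 0.796), and 4 of 10 were above 0, against 51.3% of all genes. For any difference among the time points the members also gave 0 of 10, against 3.29% of all genes, and 0 at an unadjusted p under 0.05, against 16.7%. The smallest adjusted p there was 0.310, for Loxl1.

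**Figure D2:**
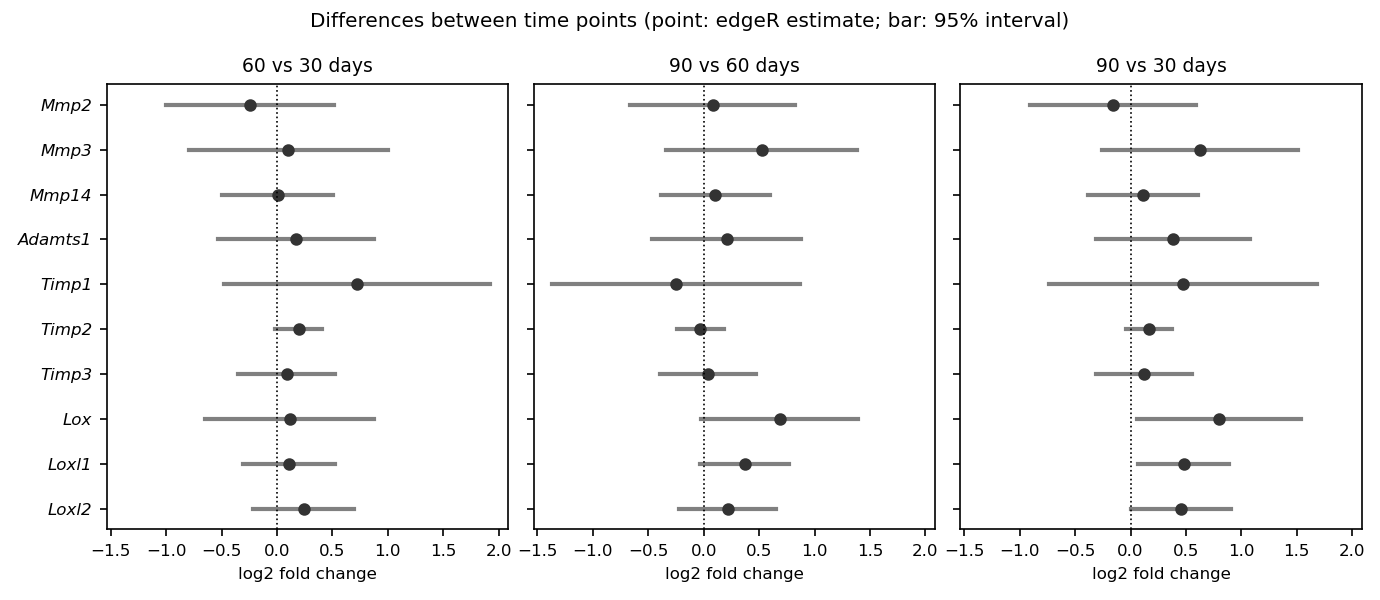
Log2 fold change of each of the 10 genes between time points, with its 95% interval from the edgeR fit. The intervals of Lox, Loxl1 and Loxl2 for 90 against 30 days lie above 0, before adjustment, and that of Timp1 is the widest, from -0.73 to 1.68 for 90 against 30 days.

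Libraries of one time point differed as a whole in their matrix genes. Sample 1 of 30 days was the lowest of all 9 libraries for 6 of the 10 members and the lowest of its group for 9. Sample 3 of 30 days was the highest of its group for 6 members, 60-day sample 3 for 7, and 90-day sample 2 for 8. The sum of the 10 levels was 41.9, 50.6 and 60.1 CPM per kilobase at 30 days, 50.2, 55.4 and 60.4 at 60 days, and 53.2, 66.6 and 53.5 at 90 days. This sum spanned a wider range among the 30-day libraries than among the 6 later ones. Total counts were 16541396 to 17179500 at 30 days and 20410818 to 26065856 at the later times. TMM factors ran from 0.824 in 30-day sample 1 to 1.19 in 90-day sample 2, and the secretory gene Mucl2 took 31.4% to 42.8% of all counts, most in 30-day sample 1.

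**Figure D3:**
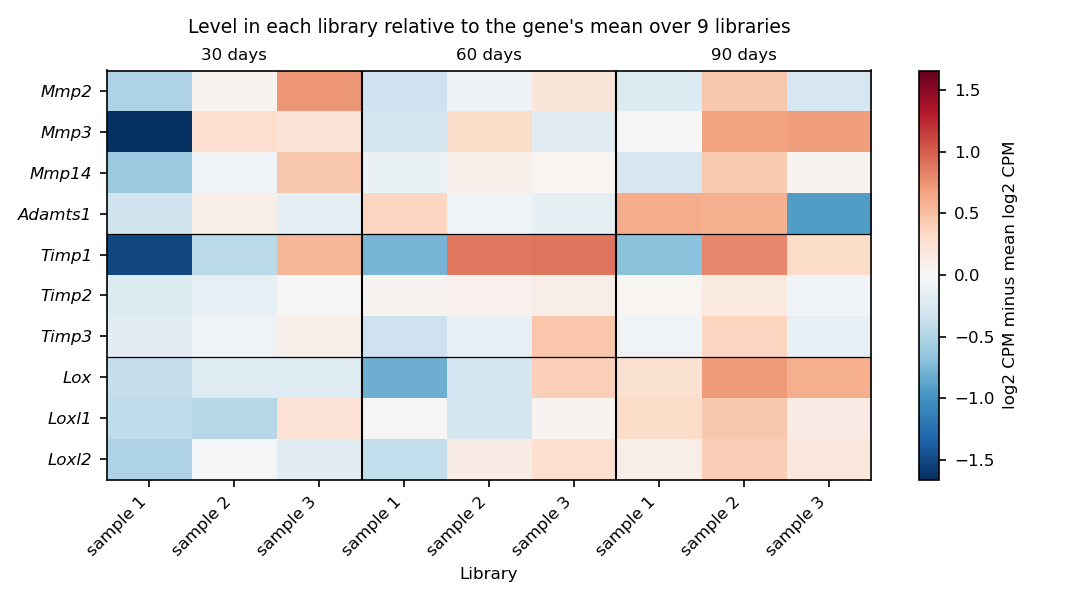
Log2 CPM of each gene minus its mean over the 9 libraries, with libraries in columns by day and sample. The column of 30-day sample 1 is below the mean for all 10 genes, and that of 90-day sample 2 is above it for all 10.

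The levels of members were compared pair by pair over the 9 libraries. Of 45 pairs, 43 had a positive Pearson correlation of log2 CPM, with a median of 0.52 and a range of -0.11 to 0.86, and the share among other pairs of genes was not computed. By exact permutation test, two-sided, 13 pairs had an unadjusted p under 0.05 and 0 of 45 an adjusted one. Permutations here and for the markers below ran over all 9 libraries regardless of time point. Differences between time points can therefore enter these p-values. The closest pair was Mmp2 and Mmp14 (Pearson r = 0.86, exact permutation p = 0.00266, adjusted p = 0.0544; Spearman rho = 0.78, exact permutation p = 0.0172). Next came Lox and Loxl2 (r = 0.85, exact permutation p = 0.00363, adjusted p = 0.0544; rho = 0.87, exact permutation p = 0.00451). Mmp14 and Timp1 were close behind (r = 0.83, exact permutation p = 0.00273, adjusted p = 0.0544; rho = 0.75, exact permutation p = 0.0255). Without the 2 libraries farthest from the median of the first gene, r was 0.67, 0.79 and 0.75 for these pairs. Taken as deviations from the mean of each time point, r was 0.92, 0.83 and 0.87, so these relations were present within time points. Adamts1 had the lowest values, with r of -0.11 with Timp1, -0.09 with Lox, 0.07 with Mmp3 and 0.09 with Mmp14. Its highest were 0.45 with Timp2 and 0.32 with Loxl1. The cell mixture can differ between libraries, as summed acinar markers ran from 303443 CPM in 90-day sample 2 to 632474 CPM in 30-day sample 1. A scaling factor is also common to all genes of a library. The part of either in these correlations was not tested.

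Member levels were also set against marker genes of fibroblasts, macrophages, endothelium, and smooth muscle and pericytes, summed per library. In bulk tissue, fewer cells of a type and less RNA per cell cannot be told apart. Of 40 relations between a member and the summed markers of 4 cell types, 40 had a positive r, from 0.0042 to 0.92 with a median of 0.56. By exact permutation test 14 had an unadjusted p under 0.05 and 3 an adjusted one. Mmp14 followed the macrophage markers (r = 0.92, exact permutation p = 0.00142, adjusted p = 0.0212; rho = 0.72, exact permutation p = 0.0369). Mmp2 followed the fibroblast markers (r = 0.91, exact permutation p = 0.000846, adjusted p = 0.0212; rho = 0.92, exact permutation p = 0.00131). Timp2 followed the smooth muscle and pericyte markers (r = 0.88, exact permutation p = 0.00159, adjusted p = 0.0212; rho = 0.80, exact permutation p = 0.0138). By rho, Mmp2 passed with the fibroblast markers, as did Timp3 (rho = 0.92, adjusted exact permutation p = 0.0262 for each). Mmp14 with the macrophage markers and Timp2 with the smooth muscle and pericyte markers did not (adjusted exact permutation p = 0.252 and 0.172). Without the 2 farthest libraries r was 0.84, 0.84 and 0.60 for Mmp14, Mmp2 and Timp2. As deviations from group means, pooled over the time points, it was 0.95, 0.94 and 0.79. The pooled value does not hold in each group. Among the 60-day libraries, sample 2 had the lowest macrophage sum (134 CPM) and the highest Mmp14 level (16.8 CPM). By the same pooled deviations the other lists came as close. Mmp14 had 0.95 with smooth muscle and pericyte markers, and Mmp2 had 0.91 with macrophage markers. Timp2 had 0.90 with macrophage, 0.85 with fibroblast and 0.80 with endothelial markers. These relations therefore do not single out 1 cell type.

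**Figure D4:**
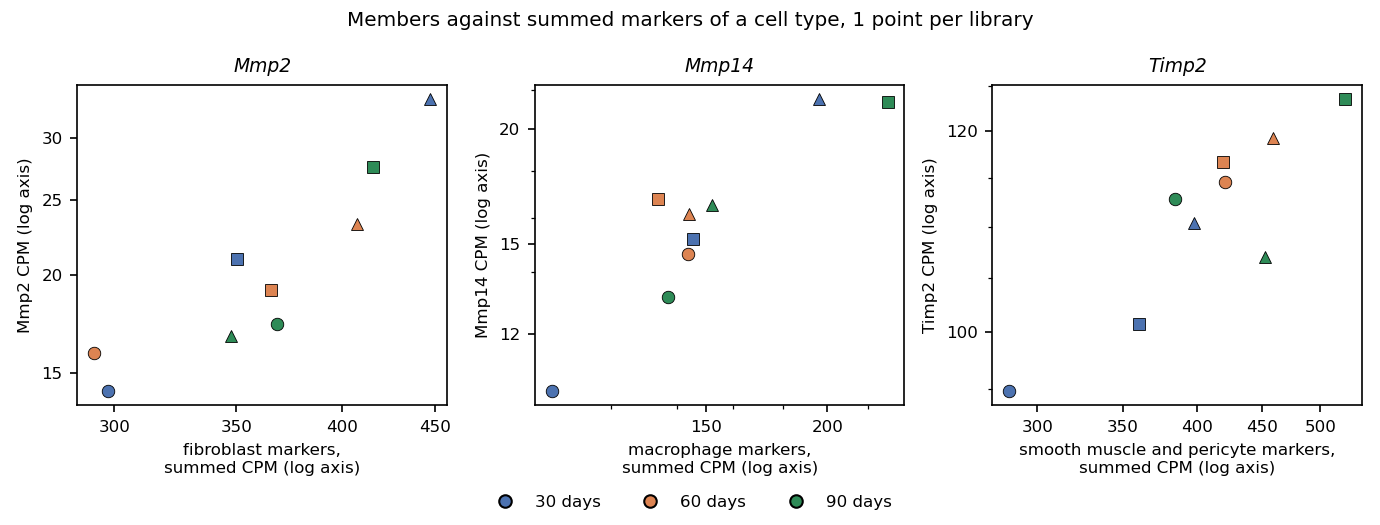
Member level against the summed level of marker genes, both in CPM on log axes, for the relations with the highest correlation. Each point is a library, marked by its time point, and the correlations are 0.91, 0.92 and 0.88.

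The 9 fibroblast markers summed to 297.5 to 447 CPM at 30 days, 292 to 408 at 60 days and 347.5 to 416 at 90 days, and 0 of 9 passed the adjusted test in any comparison. For 90 against 30 days 3 of the 9 had a positive log2 fold change, with a median of -0.04. At 90 days, where the lysyl oxidase values were highest, the summed fibroblast markers lay within their 30-day range. Smooth muscle and pericyte markers summed to 285 to 398, 419 to 459 and 384 to 523 CPM, with 0 of 7 passing and a median log2 fold change of 0.38 for 90 against 30 days. Macrophage markers summed to 104 to 196, 134 to 144 and 137 to 231 CPM, with 0 of 6 passing. No marker of these 3 lists was at 0. Other lists differed more by median log2 fold change between 90 and 30 days, where the lysyl oxidase values and Serpinh1 were highest at 90 days. Granular duct markers differed most, with 5 of 5 positive, 4 passing as higher and a median of 2.09 for 90 against 30 days. Myoepithelial and basal markers summed to 66.6 to 91.1 CPM at 30 days, 86.0 to 94.6 at 60 days and 91.4 to 149 at 90 days. For 90 against 30 days 4 of 4 tested had a positive log2 fold change and an unadjusted p under 0.05, 1 passed the adjusted test, and the median was 0.63. Of all genes, 8.38% were higher at that unadjusted level and 1.81% by the adjusted test. Lymphocyte markers summed to 15 to 20.9, 10.4 to 21.2 and 20.8 to 34.6 CPM, with 3 of 3 tested positive, 0 passing and a median of 1.33. Acinar markers summed to a mean of 512957, 440091 and 366757 CPM at the successive times, with 4 of 5 negative for 90 against 30 days, 1 passing as lower and a median of -0.42. The part of these cell types in the member values was not tested. Adipocyte markers summed to at most 2.73 CPM and skeletal muscle markers to at most 3.07 CPM, with Myh4 at 0 in all libraries. The label of salivary gland was checked on acinar and granular duct markers, which summed to at least 303443 and 3124 CPM in each library.

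The balance of inhibitor to enzyme was taken as a ratio of CPM per kilobase within each library. Timp2 over Mmp2 was 5.76, 4.16 and 2.84 at 30 days, 6.23, 5.27 and 4.43 at 60 days, and 5.62, 3.87 and 5.54 at 90 days. Timp2 exceeded Mmp2 in each library, and the groups overlapped. The 3 inhibitors together over Mmp2, Mmp3 and Mmp14 together gave 3.11 ± 1.23, 3.39 ± 0.301 and 2.91 ± 0.495 (SD, n = 3 each). Timp2 over Mmp14 gave 10.6 ± 3.08, 11.3 ± 0.674 and 10.6 ± 2.24, and the 3 lysyl oxidases over the 3 metalloproteinases gave 0.285 ± 0.0925, 0.311 ± 0.0437 and 0.347 ± 0.0599 (SD, n = 3 each). Over 12 comparisons of a ratio between time points, the exact permutation p was 0.3 or higher, two-sided, where 3 against 3 libraries allow 0.1 at the least. The adjusted p was 0.933 or higher.

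**Figure D5:**
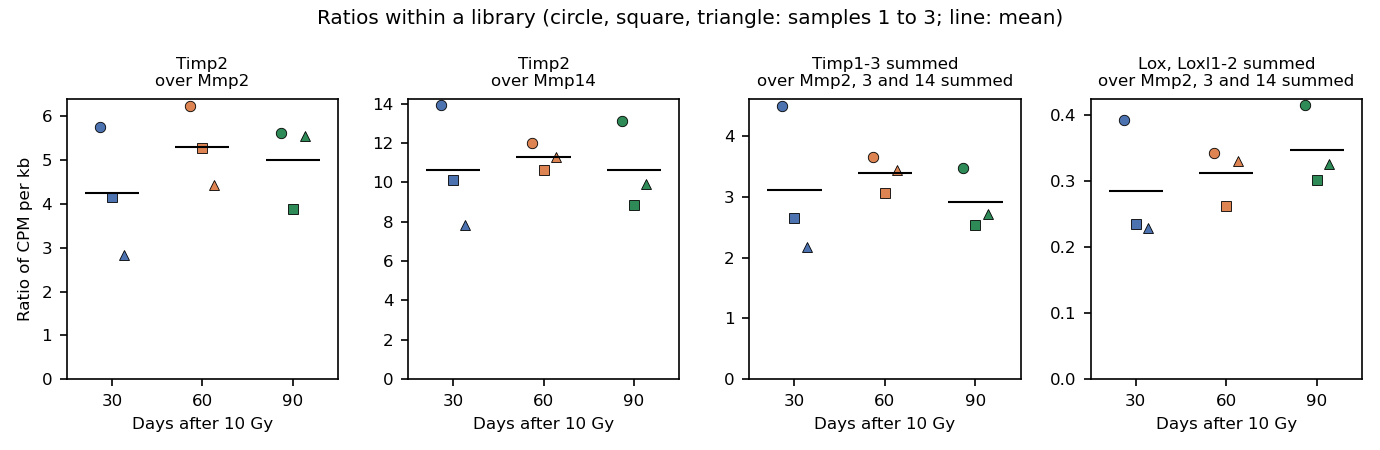
Ratios of levels in CPM per kilobase within each library, by time point. Points are libraries and bars are means. The 30-day libraries are spread most widely, from 2.17 to 4.50 for the 3 inhibitors over the 3 metalloproteinases.

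Other matrix enzymes and inhibitors gave the wider pathway. Of 59 further genes listed (among them other metalloproteinases, Adam and Adamts proteinases, prolyl and lysyl hydroxylases, serine proteinases and their inhibitors), 45 passed the filter. The counts with an adjusted p under 0.05 were 0 of 45 for 60 against 30 days, 0 of 45 for 90 against 60 days and 2 of 45, both higher, for 90 against 30 days. All genes gave 1.56%, 0.256% and 3.57% by the same test. Unadjusted counts were 10, 8 and 10 of 45, against 12.4%, 10.8% and 16.8% of all genes. The median log2 fold changes were 0.03, 0.15 and 0.28, with 23, 33 and 34 of 45 above 0. Among the genes left out by the filter were the metalloproteinases Mmp7, Mmp8, Mmp10, Mmp16, Mmp24 and Mmp28 and the inhibitor Timp4.

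Furin, a proprotein convertase that activates the precursors of Mmp14 and of several Adamts enzymes, rose from 30 to 90 days. Its libraries stood at 72.7, 78.5 and 77.6 CPM at 30 days, 99.9, 99.6 and 94.6 CPM at 60 days, and 114, 111 and 98.4 CPM at 90 days. All later libraries were above all 30-day libraries. The log2 fold change was 0.50 ± 0.10 (SE; edgeR adjusted p = 0.00664) for 90 against 30 days and 0.36 ± 0.10 (adjusted p = 0.0802) for 60 against 30 days. The call at 90 days was kept under 18 of 18 alternatives, with adjusted p-values of 6.69e-05 to 0.0455. The markers of granular ducts moved over the same times, at 3124 to 6159 CPM at 30 days, 15228 to 20474 at 60 days and 13811 to 22304 at 90 days in sum, and their part in the Furin values was not tested.

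Serpinh1, the collagen chaperone of the endoplasmic reticulum known as Hsp47, also rose from 30 to 90 days. It measured 22.0, 30.6 and 33.7 CPM at 30 days, 37.8, 32.6 and 31.7 CPM at 60 days, and 36.6, 53.3 and 44.4 CPM at 90 days. The 90-day libraries all lay above the 30-day ones, by 0.64 ± 0.16 on the log2 scale (SE; edgeR adjusted p = 0.0333). The call was kept under 12 of 18 alternatives, and it was lost without 30-day sample 1 (adjusted p = 0.146) or sample 2 (0.0810), without 60-day sample 2 (0.0601), and without 90-day sample 2 (0.168) or sample 3 (0.103). It was also lost with the 6 libraries of the comparison alone (adjusted p = 0.0739). The share of all genes higher at 90 than at 30 days by the adjusted test was 1.81%.

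The matrix proteins on which these enzymes act were counted in a list of 32 collagens, elastic fibre proteins, proteoglycans and glycoproteins. In each of the 5 tests 0 of 32 had an adjusted p under 0.05 by edgeR, and 3, 3, 6, 2 and 4 had an unadjusted one, in the order of the tests above, against 12.4%, 10.8%, 16.8%, 9.45% and 16.7% of all genes. For 90 against 30 days 19 of 32 were above 0, with a median of 0.10. Lum, the small proteoglycan lumican that spaces collagen fibrils, measured 25.7 ± 3.84, 34.1 ± 6.83 and 35.1 ± 3.32 CPM (SD, n = 3 each), and its adjusted p of 0.104 for 90 against 30 days was the smallest of the list. It passed the threshold under 4 of 18 alternatives. Fbln5, fibulin 5 of elastic fibres, measured 4.07 ± 0.666, 4.13 ± 0.411 and 6.0 ± 1.13 CPM (SD, n = 3 each), with an adjusted p of 0.194 for the same comparison.

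The genes most like each member in log2 CPM over the 9 libraries, among those with a mean of at least 5 CPM, are given by Pearson r as a description. Mmp2 was closest to the collagen gene Col5a1 (0.96) and the non-muscle myosin gene Myh9 (0.96). Mmp14 was closest to the interferon-inducible GTPase gene Irgm1 (0.95) and to Rab3il1 (0.95), and Mmp3 to Slfn8 (0.96) and the integrin gene Itgax (0.95). Timp1 was closest to the interferon receptor gene Ifnar1 (0.96) and Ctbp2 (0.96), Timp2 to Gstt1 (0.94) and Etaa1 (0.93), and Timp3 to the macrophage receptor gene Mrc1 (0.93) and the sodium channel gene Scn7a (0.91). Lox was closest to the inositol transporter gene Slc5a3 (0.96) and Boc (0.95), Loxl1 to Kdelc2 (0.97) and Mtss1l (0.96), and Loxl2 to Cnnm4 (0.97) and Ddah1 (0.97). Adamts1 was closest to the transcription factor gene Klf4 (0.93) and Fam220a (0.91). These are the highest values among all genes of that level in 9 libraries.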

How the data were processed

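Per the labels' protocols, total RNA from gland sections was treated with DNase and made into libraries with a SMARTER mRNA-seq kit. The submitters' processing notes name fastp, STAR, featureCounts and the build mm10, without versions. The authors deposited raw read counts per Ensembl gene, whole numbers that are not normalized. Annotation release, strand and treatment of multi-mapped reads are not given in the sources used here. Values in 3 other columns, whose names fit none of the 9 samples, were left unused. Symbols, exon lengths and overlaps came from GENCODE M21 (GRCm38), which holds 54495 of the 54532 identifiers.

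The 9 libraries were fitted together with edgeR 4.0.16 (filterByExpr, minimum count 10; TMM scaling; quasi-likelihood test with robust dispersion), with Benjamini-Hochberg adjustment over 15224 genes and a threshold of 0.05. CPM are counts relative to the TMM-scaled library total, and log2 CPM for correlations used a prior count of 2. Correlations and ratios were tested by exact permutation in scipy 1.17.1. Total counts were 16541396 to 26065856, and 3 counts correspond to 0.101 to 0.212 CPM, which covers counting error only. The scripts were tested on simulated data. Alternatives were library-size scaling, DESeq2 1.42.0 and its size factors, limma-voom (limma 3.58.1), other filters, the 6 libraries of a comparison alone, equal depth, the sample number as a block, and leaving out each library.

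The members and gene lists were chosen with earlier results of these data known, and the correlations, ratios and motifs after values had been seen. Named beside the members were at most 4 genes per list with the smallest p among those passing a test, or the 2 smallest where under 2 passed, and the 2 genes most like each member.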

Additional observations from a re-analysis of the deposited data

How the results depend on the processing

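The count of 0 members called was kept under every alternative run except 1: leaving out single libraries gave 0 to 1 for 90 against 30 days, where Loxl1 passed without 30-day sample 3. Library-size scaling moved the median of all genes for 90 against 30 days to 0.24 on the log2 scale. Relative to that shift, Lox at 1.02, Loxl1 at 0.70 and Loxl2 at 0.67 kept values near those under TMM. Mmp2 turned to 0.047 for 90 against 30 days and Timp2 to 0.15 for 90 against 60 days under that scaling, both below the shift of all genes (0.24 and 0.17). At equal depth Mmp14 was -0.0091 for 60 against 30 days.

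Among the 30 pairwise values of the members, leaving out single libraries turned the sign of 16, all of them without a call. It also turned 6 of the 10 values of 60 days against the mean of the other times. For 60 against 30 days the ranges were -0.49 to 0.14 (Mmp2), -0.28 to 0.37 (Mmp3), -0.21 to 0.30 (Mmp14), -0.18 to 0.25 (Timp3), -0.27 to 0.35 (Lox), -0.023 to 0.38 (Loxl1) and -0.0043 to 0.30 (Adamts1). For 90 against 60 days they were -0.20 to 0.22 (Mmp2), -0.11 to 0.25 (Mmp14), -0.65 to 0.063 (Timp1), -0.10 to 0.013 (Timp2), -0.14 to 0.30 (Timp3) and -0.020 to 0.54 (Adamts1). For 90 against 30 days they were -0.44 to 0.22 (Mmp2), -0.11 to 0.40 (Mmp14) and -0.051 to 0.22 (Timp3).

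With the sample number as a replicate block, 0 members passed in each of the 5 tests. The labels do not say whether the numbers pair the samples, and these values cannot settle it. Deviations of same-numbered libraries correlated at -0.06 to 0.19 and those of differently numbered ones at -0.21 to 0.19. Of 9 libraries, 4 correlated best with their own number. With library-size scaling, chosen after seeing the data, the median r of member pairs was 0.75, and Mmp2 with Mmp14, Lox with Loxl2 and Mmp14 with Timp1 passed (adjusted p = 0.00955, 0.00955 and 0.0144 by exact permutation test). Most other member pairs passed as well under this scaling, though no pair with Adamts1 did, where 0 of 45 pairs passed under TMM scaling. Which relations to summed markers passed also depended on the scaling. Under TMM scaling 3 of 40 passed, and under library-size scaling nearly all did. The exceptions were Mmp3 and Timp1 with endothelial markers (adjusted exact permutation p = 0.0716 and 0.263). Adamts1 with fibroblast, macrophage, and smooth muscle and pericyte markers did not pass either (adjusted exact permutation p = 0.159, 0.106 and 0.143). With at least 10 counts in every library Timp1 was not tested. DESeq2 gave no adjusted p for Timp1 between 60 and 90 days, nor for Timp1, Lox and Adamts1 at 60 days against the mean of the other times. The 6 libraries alone were run for the pairwise comparisons only. At 4 to 41 counts per library, Timp1 had the widest intervals.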
